A study of Bos taurus with 13 samples.

Results

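Inhibins, activins and their partners are described here across newborn bovine testes. The genes are INHA, INHBA and INHBB, which encode the hormone subunits, FST, which encodes the activin-binding protein follistatin, FSHR, which encodes the receptor of follicle-stimulating hormone (FSH), and ACVR2A, ACVR2B and ACVR1B, which encode activin receptors. These 8 genes were chosen by name, with earlier results of these data known. They come from 18087 genes that the array's annotation names through a probe set with a single symbol. Each of the 8 had exactly 1 such probe set, so no choice between probe sets had to be made, and each matched the bovine reference gene table by its gene identifier. All 8 were kept, and no filter on low values was used.

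Inhibin is a dimer of the alpha subunit (INHA) with a beta subunit, and activins are dimers of beta subunits, so the products of the same beta genes can enter hormones of opposite action on pituitary FSH. Activin binds a type II receptor (ACVR2A or ACVR2B), which recruits the type I receptor ACVR1B, and the signal passes on through SMAD proteins. Follistatin binds activin and keeps it from its receptors, and in the testis FSH acts on Sertoli cells, which carry FSHR and are a main source of inhibin.

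The calves were born to Angus cross cows, 24 in the whole experiment and 8 per diet, kept on forage and calving in the fall. Starting 4 months ahead of breeding and until calving, the cows could take a vitamin-mineral mix at will that held selenium at 35 ppm. The selenium was inorganic sodium selenite (ISe, 5 calves measured), the organic product Sel-Plex (OSe, 4 calves) or a 50/50 mixture of both (Mix, 4 calves). Testes were taken at an age of at most 2 days, and all 3 groups had supplemented dams, so no group without added selenium was compared. Each of the 13 calves had its own Affymetrix array, and the values are log2 expression levels of whole testis tissue.

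The table held 26773 probe sets. The array medians lay between 7.61 and 7.65 on 12 arrays and at 7.74 on the array of OSe animal 2, and any pair of arrays correlated at between 0.979 and 0.991. Markers of testis cell types were present: all 7 measured Leydig cell markers and 9 of 10 gonocyte and spermatogonium markers had means above the median of all values (7.64), as had 8 of 11 Sertoli cell markers, while 0 of 3 measured ovarian granulosa cell markers did. Different probe sets differ in how they bind their targets, so no level of 1 gene is set against that of another. In whole tissue, fewer cells of a type and less RNA per cell cannot be told apart.

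INHA, the subunit that makes a dimer an inhibin, varied little between calves. Its levels were 11.32, 11.40, 11.35, 11.30 and 11.34 in ISe animals 1 to 5. They were 11.39, 11.37, 11.43 and 11.31 in OSe animals 1 to 4, and 11.34, 11.30, 11.07 and 11.24 in Mix animals 1 to 4. The lowest calf was Mix animal 3, the next lowest was Mix animal 4, and the 3 groups overlapped. The range over all calves was 0.36 on the log2 scale, a fold of 1.29, and the SD within groups was 0.0746, with 3.14% of all probe sets having a smaller one.

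INHBA, the beta A subunit of inhibin A and activin A, was more variable. It stood at 11.46, 11.16, 11.38, 11.17 and 11.44 in ISe animals 1 to 5. The OSe animals 1 to 4 had 11.31, 11.60, 11.19 and 11.43, and the Mix animals 1 to 4 had 11.23, 11.36, 11.02 and 10.79. The lowest values were those of Mix animals 4 and 3 and the highest that of OSe animal 2, and the groups overlapped. The range was 0.81, a fold of 1.76, and the SD within groups was 0.192, above that of 59.0% of all probe sets.

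INHBB, the beta B subunit of inhibin B and activin B, was measured by a dim probe set whose mean lay below the median of all values and above their 25th percentile (6.26). Its levels were 6.998, 7.16, 6.68, 7.21 and 7.28 in ISe animals 1 to 5, 7.13, 7.26, 7.24 and 7.08 in OSe animals 1 to 4, and 7.03, 7.27, 7.05 and 7.41 in Mix animals 1 to 4. ISe animal 3 was the lowest calf and Mix animal 4 the highest, and the groups overlapped. Signal over background could not be computed from the values used here, so part of a dim level such as this may be background.

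FST, the activin-binding follistatin, was also dim, between the 25th percentile and the median of all values. The ISe animals 1 to 5 had 6.97, 7.23, 7.08, 7.22 and 7.10, the OSe animals 1 to 4 had 7.10, 6.75, 7.002 and 6.996, and the Mix animals 1 to 4 had 7.16, 7.15, 7.53 and 7.14. Every Mix calf stood above every OSe calf, though the highest OSe value (7.10) and the lowest Mix value (7.14) lay close together. Mix animal 3 was the highest of all 13 calves and OSe animal 2 the lowest, with a fold of 1.73 between them.

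FSHR, through which FSH reaches the Sertoli cell, had levels of 11.79, 11.80, 12.08, 11.75 and 11.73 in ISe animals 1 to 5. It had 11.90, 11.91, 11.88 and 11.70 in OSe animals 1 to 4 and 11.90, 11.80, 11.78 and 11.53 in Mix animals 1 to 4. ISe animal 3 was the highest calf and Mix animal 4 the lowest, and the groups overlapped. The range was 0.55, a fold of 1.46.

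The type II receptors were the steadiest genes besides INHA. ACVR2A ran from 8.83 in Mix animal 1 to 9.12 in OSe animal 3, with a median of 9.00 over the 13 calves, and 4.14% of all probe sets had a smaller SD within groups. ACVR2B ran from 7.87 in OSe animal 3 to 8.17 in OSe animal 2, with a median of 8.03, and 9.49% of probe sets had a smaller SD. OSe animal 3 thus had the highest ACVR2A and the lowest ACVR2B.

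ACVR1B, the type I receptor that passes the activin signal into the cell, spread more widely than the type II receptors. It had levels of 8.74, 8.78, 8.58, 8.84 and 8.79 in ISe animals 1 to 5. The OSe animals 1 to 4 had 8.83, 8.58, 8.88 and 8.50, and the Mix animals 1 to 4 had 8.93, 8.67, 9.22 and 8.82. Mix animal 3 was the highest calf, as for FST, and OSe animal 4 the lowest, and the groups overlapped.

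**Figure D1:**
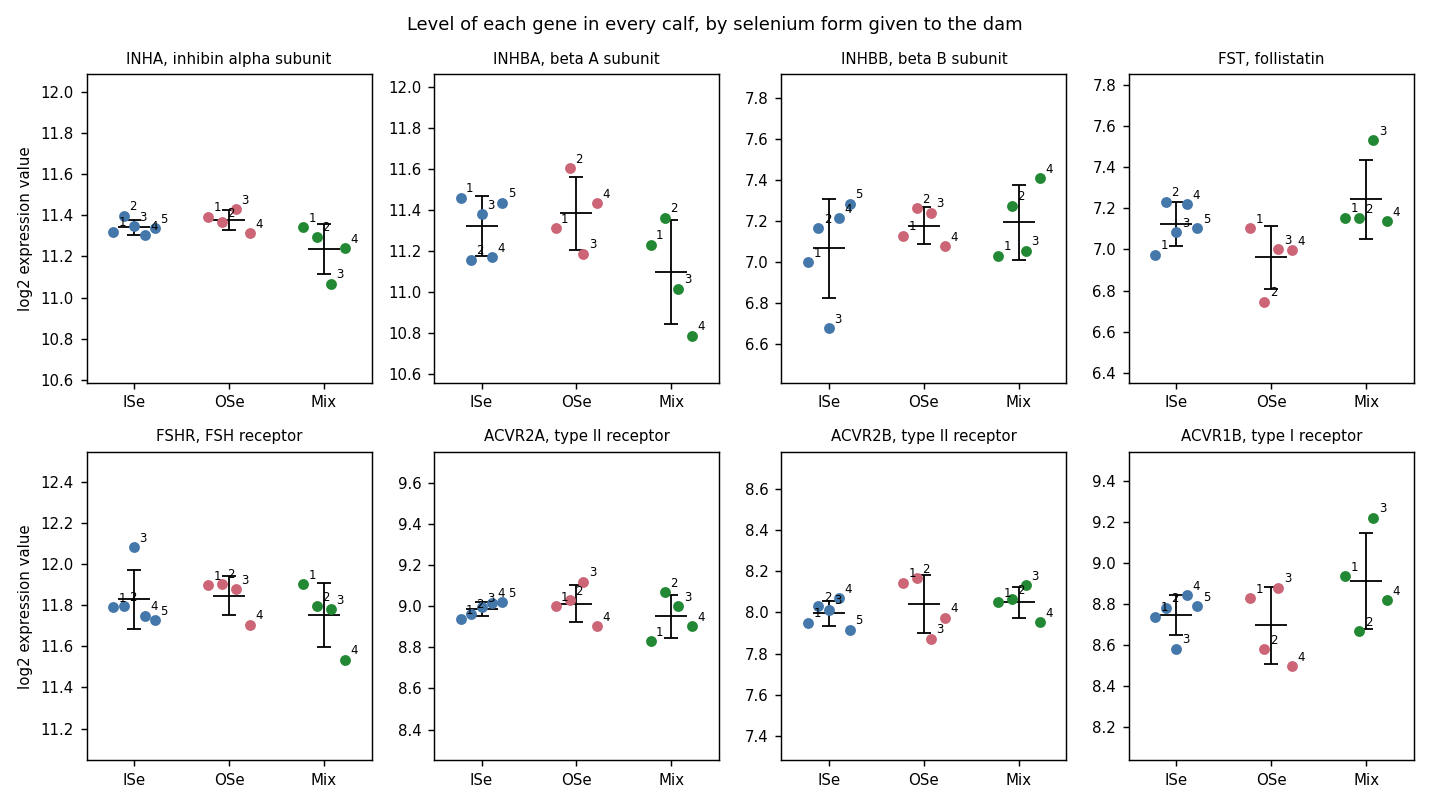
Log2 expression level of each of the 8 genes in each of the 13 calves, by maternal selenium group (5 ISe, 4 OSe and 4 Mix calves), with points for calves, bars for group means and whiskers for the SD. The groups overlap for 7 of the 8 genes in every comparison, and for FST all 4 Mix calves lie above all 4 OSe calves.

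The first comparison asked whether the form of selenium given to the dam was reflected in these genes at birth. None of the 8 genes passed limma's moderated F test over the 3 groups, with p-values adjusted by the Benjamini-Hochberg method over all 26773 probe sets and a threshold of 0.05. Of all probe sets 0% passed, with a lowest adjusted p of 0.557. At an unadjusted p under 0.05 there were 1206 probe sets (4.5%), and 0 of the 8 genes. The lowest unadjusted p among the 8 was that of FST, at 0.0616 (adjusted p 0.954), and the next was that of INHBA, at 0.107.

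Among the ligand subunits, INHA and INHBA had the same order of group means, with Mix lowest and OSe highest. The INHA mean was 11.34 ± 0.04 in the 5 ISe calves, 11.38 ± 0.05 in the 4 OSe calves and 11.24 ± 0.12 in the 4 Mix calves, with errors as SD here and for all group means. INHBA stood at 11.32 ± 0.15 in ISe, 11.38 ± 0.18 in OSe and 11.10 ± 0.25 in Mix. INHBB was lowest in ISe, at 7.07 ± 0.24, against 7.18 ± 0.09 in OSe and 7.19 ± 0.18 in Mix. No neighbouring means in these orders differed by limma's test.

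FST had the order OSe, ISe, Mix from lowest to highest, with 6.96 ± 0.15, 7.12 ± 0.11 and 7.24 ± 0.19. ACVR1B had the same order, with 8.70 ± 0.19 in OSe, 8.75 ± 0.10 in ISe and 8.91 ± 0.23 in Mix. FSHR stood at 11.83 ± 0.14 in ISe, 11.85 ± 0.10 in OSe and 11.75 ± 0.16 in Mix. The type II receptors differed least, with 8.99 ± 0.04, 9.01 ± 0.09 and 8.95 ± 0.11 for ACVR2A and 8.00 ± 0.06, 8.04 ± 0.14 and 8.05 ± 0.08 for ACVR2B in ISe, OSe and Mix. Again no neighbouring means differed by the test.

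Organic against inorganic selenium gave small differences in all 8 genes. No probe set of the table passed the test in this contrast (0%, lowest adjusted p 0.9999), 2.62% had an unadjusted p under 0.05, and 0.743% had groups that did not overlap. Among the 8 genes these counts were 0, 0 and 0, with 6 genes higher and 2 lower in OSe, and a median difference of 0.031 against 0.024 over all probe sets. The difference furthest from 0 was that of FST, lower in OSe by 0.16 ± 0.10 (SE) on the log2 scale, with a 95% confidence interval from -0.38 to 0.06. Without OSe animal 2, the calf with the lowest FST and the array median of 7.74, FST was lower by 0.09. INHBB was higher in OSe by 0.11, and by 0.01 without ISe animal 3. The intervals of the 8 genes lay between -0.38 and 0.37, so for some of them a true difference of that size was within the error.

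Mixed against inorganic selenium was similar. Again 0% of probe sets passed the test (lowest adjusted p 0.967), 3.72% had an unadjusted p under 0.05 and 1.02% had groups that did not overlap, against 0 of the 8 genes in each case. The genes divided into 4 higher and 4 lower, with a median of 0.0088 against 0.0047 over all probe sets. INHBA was lower in Mix by 0.22 ± 0.12 (SE), with an interval from -0.49 to 0.04, and by 0.12 without Mix animal 4. ACVR1B was higher in Mix by 0.16 ± 0.12, with an interval from -0.08 to 0.41, and its adjusted p in limma was 0.967, as was that of INHBA. Without Mix animal 3 the ACVR1B difference was 0.06, that of FST was 0.03 in place of 0.12, and that of INHA was -0.05 in place of -0.10. INHBB was higher in Mix by 0.13, by 0.03 without ISe animal 3 and by 0.05 without Mix animal 4.

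Mixed against organic selenium held the differences furthest from 0, and the same OSe and Mix calves enter here as in the other comparisons. Among all probe sets 0% passed the test (lowest adjusted p 0.291), 8.53% had an unadjusted p under 0.05 and 4.24% had groups that did not overlap. Of the 8 genes, 0 passed the test, 2 had an unadjusted p under 0.05 and 1 had groups that did not overlap. With so few genes these shares cannot be told from the background. The 8 genes divided into 4 higher and 4 lower, with a median of -0.026 against -0.018 over all probe sets.

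FST was higher in Mix than in OSe by 0.28 ± 0.11 (SE) on the log2 scale, a fold of 1.22, with an interval from 0.05 to 0.52. Its unadjusted p in limma was 0.0208 and its adjusted p 0.581. Without Mix animal 3, the calf with the highest FST, the difference was 0.19 (adjusted p 0.637), and over all alternatives its adjusted p in limma ran from 0.490 to 0.782. INHBA was lower in Mix by 0.28 ± 0.13, also a fold of 1.22, with an interval from -0.57 to -0.0029, an unadjusted p of 0.048 and an adjusted p of 0.584. Without Mix animal 4, the lowest calf, INHBA differed by -0.18 (adjusted p 0.704), and over all alternatives its adjusted p ran from 0.508 to 0.791.

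INHA was lower in Mix than in OSe by 0.14 ± 0.07 (SE; interval from -0.30 to 0.02, adjusted p 0.608 in limma), and by 0.08 without Mix animal 3. ACVR1B was higher in Mix by 0.21 ± 0.12 (interval from -0.05 to 0.48, adjusted p 0.618), and by 0.11 without Mix animal 3. FSHR differed by -0.09, ACVR2A by -0.06, INHBB by 0.02 and ACVR2B by 0.01, with intervals that all included 0. Leaving out single calves gave -0.14 (without Mix animal 1 or OSe animal 4) to -0.02 (without Mix animal 4) for FSHR and -0.10 (without Mix animal 2 or OSe animal 4) to -0.02 (without Mix animal 1) for ACVR2A, which was -0.03 without OSe animal 3. The interval of INHBB ran from -0.26 to 0.29 and that of ACVR2B from -0.16 to 0.19, so those groups were not shown to be alike either.

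**Figure D2:**
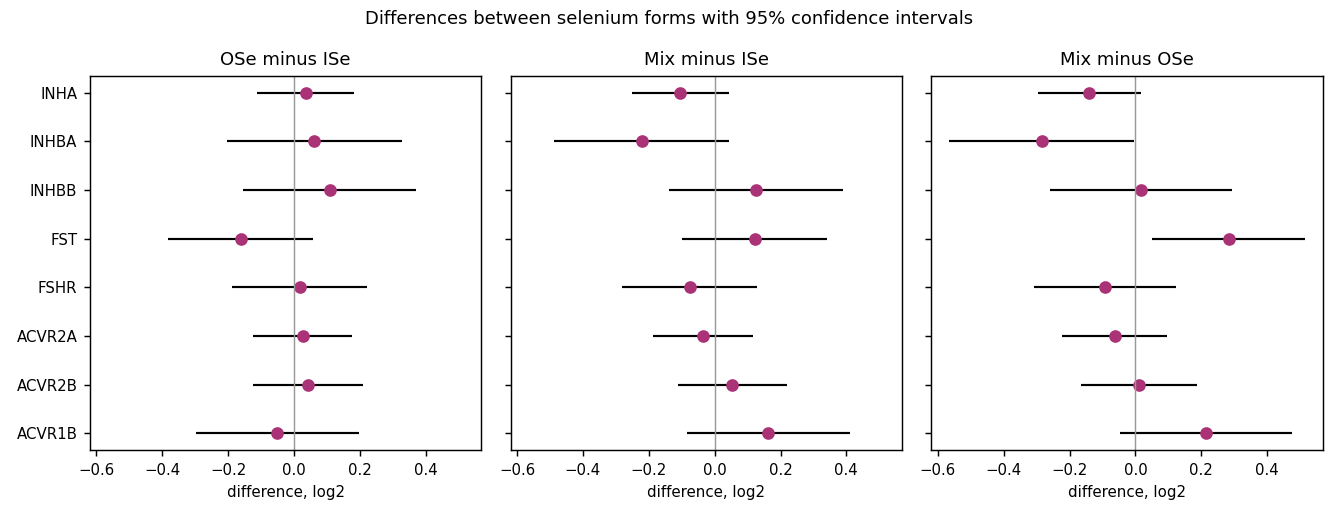
Difference in mean log2 level between maternal selenium groups for each of the 8 genes, with points for the differences and lines for 95% confidence intervals from limma's fit over 13 arrays. Of the 24 intervals, those of FST (from 0.05 to 0.52) and INHBA (from -0.57 to -0.0029) in Mix minus OSe leave out 0 before adjustment, and no difference passed the test after it.

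The second question was whether the genes moved together over calves. Pearson's r and Spearman's rho were computed over the 13 calves for the 28 pairs of genes, with two-sided permutation tests of 100000 resamples and adjustment over the 28 pairs. Of these, 16 pairs had an r above 0 and 12 below. At an unadjusted p under 0.05 there were 5 pairs by r and 4 by rho, and 0 pairs passed the adjusted threshold by either. The lowest adjusted p by r was 0.164. With group means removed, 2 pairs had an unadjusted p under 0.05 and 0 passed.

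FST and ACVR1B had the highest r, at 0.757 (permutation p 0.00651, adjusted 0.164), with a rho of 0.616 (permutation p 0.0276, adjusted 0.193). Mix animal 3 was the highest calf for both genes. Without it r was 0.510, and without the 2 calves farthest from the FST median, Mix animal 3 and OSe animal 2, it was 0.364. Without the 2 calves farthest from the ACVR1B median, Mix animal 3 and OSe animal 4, it was 0.501. Leaving out calves at the ends narrows the range, which by itself can lower r. With group means removed r was 0.696. Of all genes, 1.52% had an r at least as high with FST and 2.73% with ACVR1B.

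INHBA went in the opposite direction to FST. Their r was -0.659 (permutation p 0.0182, adjusted 0.164) and their rho -0.781 (permutation p 0.0024, adjusted 0.0672). Without the 2 calves farthest from the INHBA median, Mix animals 4 and 3, r was -0.784, and without Mix animal 4 alone it was -0.857 with an adjusted permutation p of 0.013. It was -0.535 without OSe animal 2, and -0.451 without the 2 calves farthest from the FST median, Mix animal 3 and OSe animal 2. With group means removed it was -0.513. Of all genes, 1.83% had an r at least as low with INHBA and 4.40% with FST.

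INHBA and ACVR1B had an r of -0.632 (permutation p 0.0235, adjusted 0.164) and a rho of -0.676 (permutation p 0.014, adjusted 0.185). Their r was -0.696 without Mix animals 4 and 3, -0.806 without Mix animal 4 alone, with an adjusted permutation p of 0.022, and -0.488 with group means removed. It was -0.573 without OSe animal 2, and -0.568 without the 2 calves farthest from the ACVR1B median, Mix animal 3 and OSe animal 4. The activin subunit INHBA thus had negative correlations with both the activin-binding FST and the receptor ACVR1B, none of which passed the adjusted threshold over all 13 calves.

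The other 2 correlations with a low unadjusted p by r were weaker without calves at the ends of the range. INHBB and FSHR had an r of -0.700 (permutation p 0.0123, adjusted 0.164) but a rho of -0.396. ISe animal 3 was the lowest calf for INHBB and the highest for FSHR, Mix animal 4 was the reverse, and without both r was 0.0026. Leaving out single calves kept r between -0.779 and -0.443, and with group means removed it was -0.728 (permutation p 0.0268, adjusted 0.544). INHA and FST had an r of -0.670 (permutation p 0.0293, adjusted 0.164) and a rho of -0.341, and r was -0.206 without Mix animal 3.

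The partners within a dimer or receptor complex gave weak or unstable values. INHA and INHBA, the subunits of inhibin A, had an r of 0.458 (permutation p 0.119), which was -0.308 without Mix animals 3 and 4. INHA and INHBB, the subunits of inhibin B, had an r of 0.0042 (permutation p 0.988), and INHBA and INHBB an r of -0.283 (permutation p 0.338). The type II receptors ACVR2A and ACVR2B had an r of 0.0026 (permutation p 0.994). INHA and FSHR, both genes of Sertoli cells, had an r of 0.402 (permutation p 0.169), between 0.313 and 0.629 without single calves, and a rho of 0.646 (permutation p 0.0199, adjusted 0.185).

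**Figure D3:**
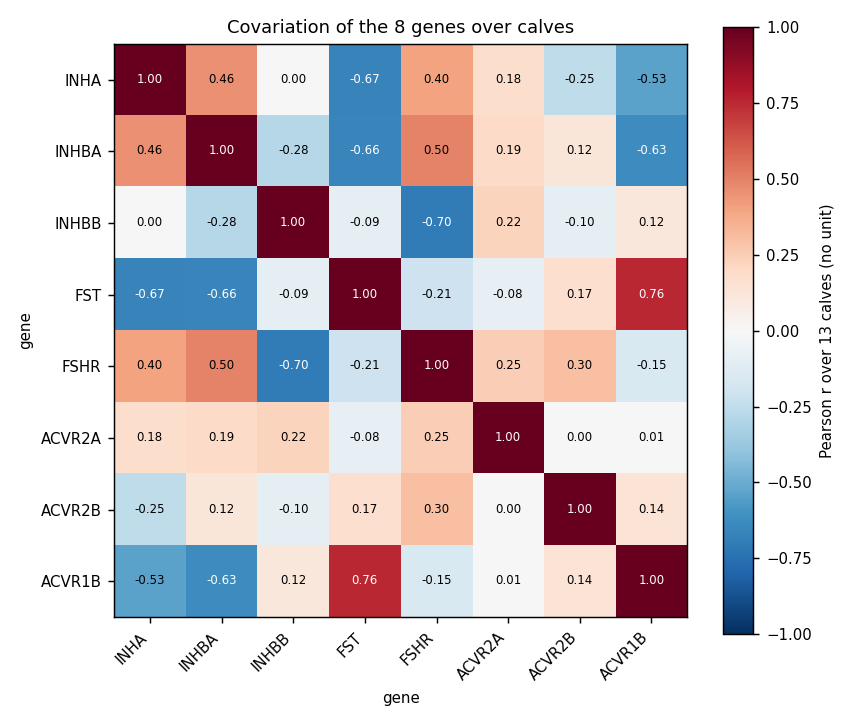
Pearson's r over 13 calves for each of the 28 pairs of the 8 genes. FST with ACVR1B is the highest at 0.757 and INHBB with FSHR the lowest at -0.700, and no pair had an adjusted permutation p under 0.05.

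The third question was whether the levels of these genes in whole tissue went along with those of cell type markers. Each gene was set against the mean level of 10 marker lists, which gave 80 pairs, tested as above and adjusted over the 80. At an unadjusted p under 0.05 there were 11 pairs, and 3 passed the adjusted threshold by r. By rho 1 passed, and with group means removed 0 did. All 3 pairs involved FST or ACVR1B. The share of all genes that went as far with these marker means is not given, unlike for the pairs of members. The 3 pairs are therefore not shown to be particular to FST and ACVR1B. The shares of all genes with a high r with either gene are given further below.

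FST was higher in calves with higher gonocyte and spermatogonium markers, genes of the germ cells. Their r was 0.844 (permutation p 0.00033, adjusted 0.0236) and their rho 0.845 (permutation p 0.00039, adjusted 0.0312). All 10 markers had an r above 0 with FST, 7 of them at least 0.7, with a median of 0.80. The highest was that of DAZL, a germ cell RNA-binding protein, at 0.88, and the lowest that of NANOS3, at 0.17. With group means removed r was 0.785 (adjusted permutation p 0.18), and without Mix animal 3 and OSe animal 2 it was 0.656 (adjusted permutation p 0.311).

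ACVR1B had an r of 0.823 with the same markers (permutation p 0.00059, adjusted 0.0236) and a rho of 0.648 (permutation p 0.0197, adjusted 0.262). Here 9 of the 10 markers had an r above 0, with 7 at least 0.7 and a median of 0.80. DDX4, a germ cell RNA helicase, was highest at 0.87 and NANOS3 lowest at -0.29. Without Mix animal 3 and OSe animal 4, the calves farthest from the ACVR1B median, r was 0.697 (adjusted permutation p 0.232), and with group means removed it was 0.767 (adjusted permutation p 0.18).

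ACVR1B had an r of -0.788 with the endothelial cell markers (permutation p 0.00111, adjusted 0.0296) and a rho of -0.775 (permutation p 0.00273, adjusted 0.0728). All 8 of these markers had an r below 0, with CDH5, the cadherin of endothelial junctions, lowest at -0.74. With group means removed r was -0.754 (adjusted permutation p 0.31). Leaving out single calves kept the r of these 3 pairs between 0.748 and 0.937 for FST with germ cell markers, between 0.711 and 0.853 for ACVR1B with them, and between -0.804 and -0.733 for ACVR1B with endothelial markers. The adjusted p was no longer under 0.05 for any of the 3 pairs without ISe animal 4, OSe animal 2, OSe animal 4 or Mix animal 3, where it ran from 0.0516 to 0.249. Without ISe animal 3 it was 0.0808 for both ACVR1B pairs, and without OSe animal 3 it was 0.0755 for ACVR1B with endothelial markers. ACVR1B was also negative with other lists, which did not pass over all 13 calves. With peritubular myoid and smooth muscle markers r was -0.607 (adjusted permutation p 0.265) and rho -0.747 (adjusted 0.0876). Without Mix animal 3 and OSe animal 4 that r was -0.901 (adjusted permutation p 0.0252). It had an r of -0.537 with fibroblast, 0.397 with macrophage and 0.510 with excurrent duct markers.

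The germ cell marker mean differed between calves. Its group means were 9.06 ± 0.30 (SD) in ISe, 8.91 ± 0.24 in OSe and 9.28 ± 0.25 in Mix. The groups overlapped, and their differences in this mean were not tested. By calf, the germ cell marker mean was 9.00, 9.21, 8.62, 9.44 and 9.02 in ISe animals 1 to 5. It was 9.19, 8.64, 8.99 and 8.81 in OSe animals 1 to 4, and 9.09, 9.15, 9.65 and 9.24 in Mix animals 1 to 4. Mix animal 3, highest for FST and ACVR1B and lowest for INHA, had the highest germ cell marker mean and, at 8.80, the lowest endothelial marker mean. OSe animal 2, highest for INHBA and lowest for FST, had the highest endothelial marker mean, at 9.26, and the next to lowest germ cell marker mean. The endothelial marker mean ran from 8.88 to 9.06 in ISe, from 8.84 to 9.26 in OSe and from 8.80 to 8.99 in Mix. The part of cell makeup in the differences of FST, INHBA, INHA and ACVR1B between Mix and OSe was not tested.

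INHBA had an r of -0.697 with the germ cell markers (permutation p 0.00902, adjusted 0.18) and a rho of -0.780, and 9 of the 10 markers had an r below 0. INHA had an r of -0.594 with them (permutation p 0.0344, adjusted 0.273), which was -0.229 without Mix animal 3. INHBA had positive values with fibroblast and matrix markers (r 0.648, adjusted permutation p 0.191) and with endothelial markers (r 0.583, adjusted permutation p 0.273), and a negative value with excurrent duct epithelium markers (r -0.652, adjusted permutation p 0.191). None of these passed the adjusted threshold. The ovarian granulosa cell list, of a tissue absent here, gave INHBA an r of 0.367 (permutation p 0.216). With group means removed that r was 0.666 (permutation p 0.0315, adjusted 0.42). On the same measure r was 0.533 with fibroblast, 0.489 with endothelial and -0.575 with germ cell markers. INHBA thus went as far with a list of absent cells as with these.

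With Sertoli cell markers, whose mean ran from 8.46 to 8.61 in ISe, from 8.54 to 8.74 in OSe and from 8.50 to 8.62 in Mix, no gene passed. The r was 0.547 for INHBA (permutation p 0.0537), 0.091 for INHA and -0.063 for FSHR. Single markers gave an r of 0.74 for INHBB with DHH, the hedgehog ligand of Sertoli cells, of 0.68 for INHBA with AMH, the anti-Müllerian hormone, and of 0.78 for ACVR2B with CLDN11, a tight junction protein. These are the highest of 11 markers each and carry no test. Over the list, INHBB had 7 markers with an r above 0 and 4 below (median 0.10, AMH lowest at -0.30), INHBA had 8 and 3 (median 0.22, DMRT1 lowest at -0.45), and ACVR2B had 6 and 5 (median 0.10).

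ACVR2B had an r of -0.644 with Leydig cell markers (permutation p 0.0167, adjusted 0.191), and -0.777 with group means removed. The rho of this pair was -0.516 (permutation p 0.074, adjusted 0.423). All 7 markers had an r below 0, with a median of -0.42. The strongest was CYP17A1, an enzyme of androgen synthesis, at -0.81, and the weakest NR5A1, at -0.20. OSe animal 3 had the highest Leydig marker mean, at 11.65, and the lowest ACVR2B. Without that calf r was -0.473. The Leydig marker mean ran from 10.81 to 11.05 in ISe, from 10.62 to 11.65 in OSe and from 10.76 to 11.26 in Mix.

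**Figure D4:**
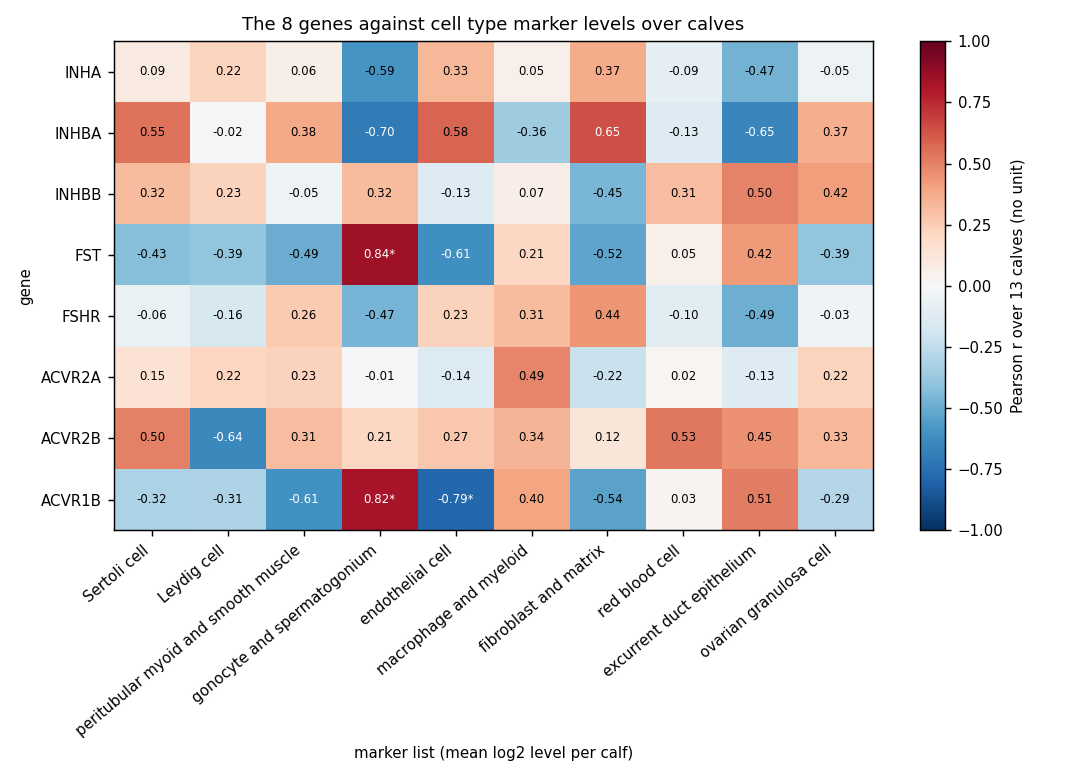
Pearson's r over 13 calves of each of the 8 genes with the mean log2 level of each of 10 cell type marker lists, with a star where the permutation p adjusted over the 80 pairs is under 0.05. The stars stand at FST and ACVR1B with gonocyte and spermatogonium markers (0.844 and 0.823) and at ACVR1B with endothelial cell markers (-0.788).

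**Figure D5:**
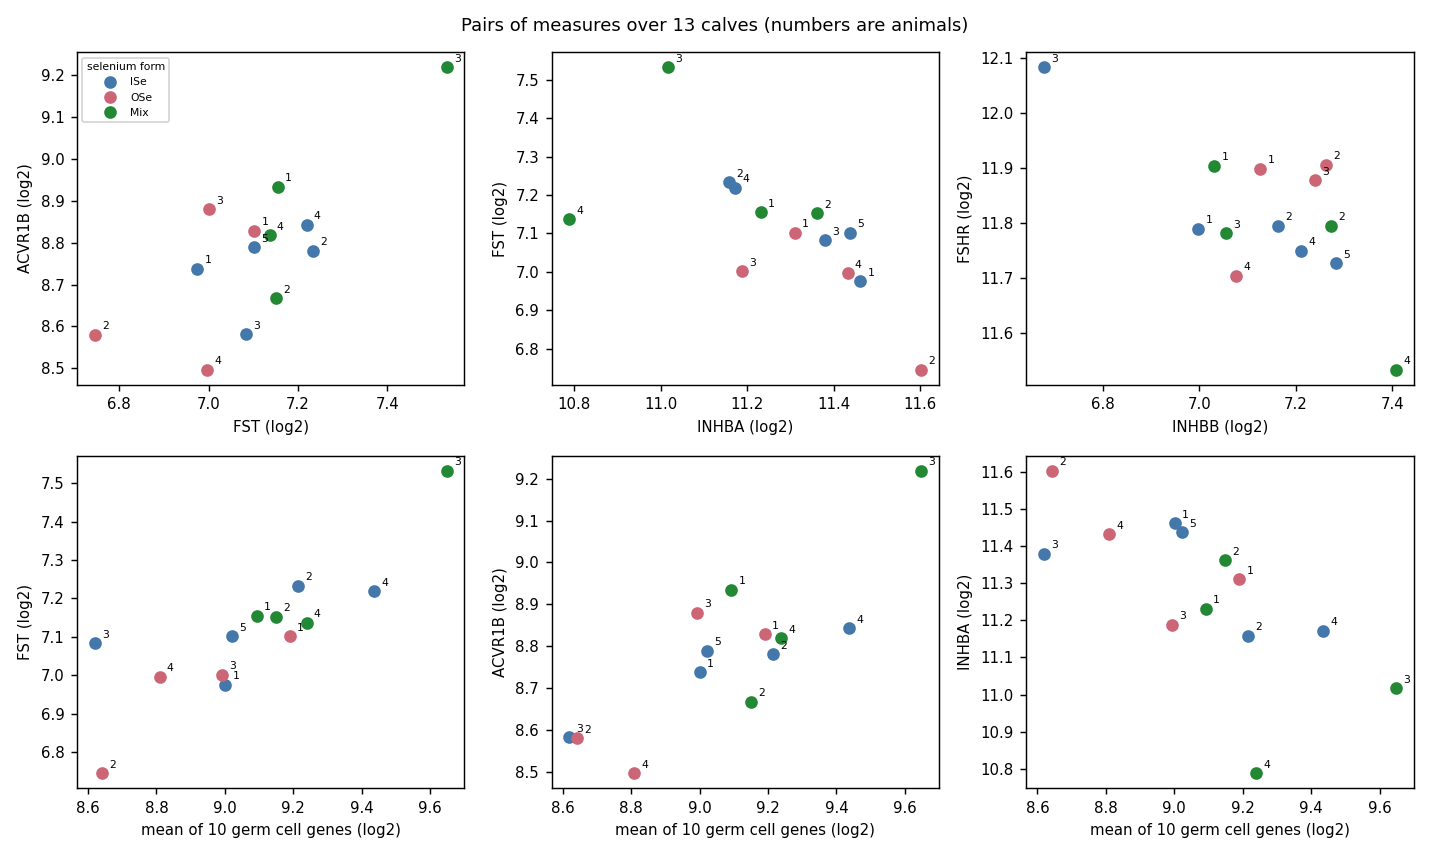
Scatter plots over the 13 calves, coloured by maternal selenium group, of the pairs described above, with axes in log2 levels. Mix animal 3 stands at the high end for FST, ACVR1B and germ cell markers, and ISe animal 3 at the high end for FSHR and the low end for INHBB.

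The genes whose pattern over calves was most like each of the 8 were sought among 14149 other genes with means above the 25th percentile, by Pearson's r over the 13 calves after group means were removed. For INHA these were PDP2 (0.915), NLRP5 (0.877), MLPH (0.854) and NRGN (0.850), and the most opposed were ECPAS (-0.922) and SLC15A4 (-0.917). For INHBA they were SEMA3B (0.947), SUMF1 (0.932), ABLIM1 (0.931) and ANKRD6 (0.923), with SERPINC1 (-0.899) and POLR2F (-0.891) most opposed. For INHBB they were PRPF3 (0.884), ATP6AP2 (0.875), RANBP1 (0.863) and ZC2HC1B (0.854), against IFT25 (-0.897) and SSR4 (-0.863). These are the extremes of a search over 14149 genes in 13 calves and are given as a description, with no test.

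For FST the most alike were TRIM58 (0.933), GEMIN8 (0.927), ODAD3 (0.906) and KLK7 (0.898), with RPS6KB2 (-0.943) and TRIAP1 (-0.934) most opposed. For FSHR they were TTC8 (0.928), KCNN2 (0.912), LTF (0.880) and PRCP (0.869), against CDK11B (-0.970) and BOP1 (-0.950). For ACVR2A they were FMN1 (0.903), BCAP29 (0.871), SECTM1A (0.855) and AMIGO2 (0.853), against MEN1 (-0.926) and PSENEN (-0.894).

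For ACVR2B the most alike were FBXO6 (0.895), H1-7 (0.892), MED13L (0.891) and REPS2 (0.881), and the most opposed were CYP17A1 (-0.889), the Leydig cell enzyme named above, and ATP5MC1 (-0.868). For ACVR1B they were FBXO47 (0.975), CCT6B (0.969), ZNF597 (0.952) and ABCA3 (0.944), against PEX13 (-0.948) and HIC1 (-0.923). No member of the 8 was among the genes most like another. The share of 18086 genes with an r of at least 0.7 without removing group means was 4.21% for ACVR1B, 3.27% for INHBA and 2.65% for FST, and from 0.210% to 1.05% for the other 5.

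The wider pathway was followed in 8 lists by role, of which 116 of 125 genes were measured by a probe set with a single symbol. None of the 116 passed limma's F test or any contrast. At an unadjusted p under 0.05 the F test held 6 of them (5.17%), near the 4.5% of all probe sets. In Mix against OSe 16 of 116 (13.8%) had an unadjusted p under 0.05, against 8.53% of all probe sets, and 44 were higher and 72 lower in Mix, with a median of -0.047. For comparison, 45.9% of all 18087 genes were higher in Mix than in OSe. In OSe against ISe 74 of the 116 were higher and 42 lower, where 59.8% of all genes were higher, and in Mix against ISe 51 were higher and 65 lower, where 52.1% of all genes were higher.

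The list of 17 related ligands besides the members also holds transforming growth factors and bone morphogenetic proteins. Of these 17, 13 were higher and 4 lower in Mix than in OSe, and none passed the test. The 2 with the lowest F test p were BMP6, a bone morphogenetic protein, and TGFB2, a transforming growth factor. BMP6 stood at 8.55 ± 0.31 (SD) in ISe, 8.46 ± 0.14 in OSe and 8.94 ± 0.21 in Mix, and its unadjusted p in limma's F test was 0.0201 (adjusted 0.954). All 4 Mix calves lay above all 4 OSe calves for BMP6, and 4.24% of all probe sets had no overlap between these groups. Of the other pathway genes named below, ACVR1, FOXO1, LDHA and CCND2 had no overlap between Mix and OSe either. CCND2 also had none between OSe and ISe, and LTBP1 had none between Mix and ISe. The named genes, BMP6 among them, were picked by the lowest F test p in these data, which favours groups that lie apart. Their number without overlap therefore cannot be set against the share of all probe sets. The share over all measured pathway genes is not given. TGFB2 stood at 9.47 ± 0.11, 9.17 ± 0.27 and 9.24 ± 0.08, with an unadjusted p of 0.0433.

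Of the 12 measured receptors and co-receptors, 3 were higher and 9 lower in Mix than in OSe. ACVR1, another type I receptor, stood at 9.91 ± 0.09 in ISe, 10.04 ± 0.14 in OSe and 9.82 ± 0.04 in Mix (unadjusted p 0.0476 in limma's F test), and ACVRL1, the type I receptor of endothelial cells, at 8.65 ± 0.36, 8.85 ± 0.15 and 8.42 ± 0.36. Of 10 measured inhibitors 4 were higher and 6 lower in Mix than in OSe. LTBP1, which holds latent TGF-beta in the matrix, stood at 9.40 ± 0.17, 9.27 ± 0.56 and 8.88 ± 0.25, and the dim NOG, the antagonist noggin, at 4.32 ± 0.11, 4.57 ± 0.29 and 4.44 ± 0.07.

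Of 12 measured SMADs and nuclear partners, 2 were higher and 10 lower in Mix than in OSe. The repressors SKIL and SMAD6 led by p, with 8.67 ± 0.20, 8.85 ± 0.16 and 8.60 ± 0.13 for SKIL and 8.19 ± 0.42, 8.36 ± 0.29 and 7.85 ± 0.39 for SMAD6 in ISe, OSe and Mix. Of the 6 proteases that cut the precursors, 4 were higher and 2 lower in Mix, with PCSK7 at 8.27 ± 0.16, 8.18 ± 0.15 and 8.47 ± 0.14 and PCSK6 at 7.55 ± 0.15, 7.34 ± 0.14 and 7.63 ± 0.26. None of these passed the test, and their unadjusted p-values in limma's F test ran from 0.0556 to 0.127.

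Downstream of FSHR, 12 of 22 measured signalling genes were higher and 10 lower in Mix than in OSe. CREB1, the transcription factor activated by cyclic AMP, stood at 10.93 ± 0.14 in ISe, 11.09 ± 0.16 in OSe and 10.81 ± 0.16 in Mix, and FOXO1, a transcription factor restrained by AKT, at 10.36 ± 0.23, 10.31 ± 0.09 and 10.57 ± 0.12. Of 20 measured response genes of FSH and activin, 5 were higher and 15 lower in Mix than in OSe. LDHA, the lactate dehydrogenase subunit, stood at 6.80 ± 0.18, 6.77 ± 0.14 and 7.13 ± 0.18, with an unadjusted p of 0.0135 in limma's F test (adjusted 0.954). Its probe set was dim, between the 25th percentile (6.26) and the median of all values (7.64), so part of its level may be background. CCND2, the cyclin D of proliferating gonadal somatic cells, stood at 10.51 ± 0.08, 10.72 ± 0.13 and 10.50 ± 0.07, with an unadjusted p of 0.0251.

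Of 17 transcription factors taken as regulators of the INHA and FSHR promoters, 1 was higher and 16 were lower in Mix than in OSe, with a median of -0.078, and none passed the test. They include 5 of the 11 Sertoli cell markers used above. SOX9, the Sertoli cell determinant, stood at 8.54 ± 0.18 in ISe, 8.84 ± 0.25 in OSe and 8.52 ± 0.11 in Mix (unadjusted p 0.037 in limma's F test, adjusted 0.954), and JUND, an AP-1 subunit, at 8.26 ± 0.05, 8.46 ± 0.17 and 8.23 ± 0.17. These counts describe the lists and were not tested as sets.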

How the data were processed

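The authors measured testis RNA of 13 calves on Affymetrix arrays. Total RNA was extracted with Trizol and labelled as biotinylated cRNA from oligo(dT)-primed cDNA, per the labels' protocols. The deposited values were log2 expression values, read as such from their range of 2.07 to 14.60. GCOS 1.2 and Partek 6.4 are named per the submitters' processing notes, without their roles. The background correction, the probe summary, the centring and the normalization between arrays are not given in the sources used here, and a normalization that equalizes arrays can shrink differences common to many genes. The number of arrays limits the precision.

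Probe sets were named by the platform annotation: 18550 had a single symbol, 595 several and 7628 none, and none was named from several. Where a gene had several probe sets, the one with the highest mean stood for it. All 13 arrays entered 1 limma 3.58.1 model with group means (R 4.3.3) with empirical Bayes moderation, a moderated F test and 3 contrasts, adjusted by Benjamini-Hochberg over 26773 probe sets at 0.05. Correlations over calves were tested by 100000 two-sided permutations (Python 3.11.15, scipy 1.17.1), within groups where group means were removed. All 8 genes are named. Of each pathway list the 2 genes with the lowest F test p are named, and of the genes most like a member the 4 highest and the 2 lowest by r. The genes, lists and tests were chosen with earlier results of these data known. On simulated data with changes of 0.5, 1 and 2 (log2) planted in 67, 67 and 66 of 26773 probe sets, 38.8%, 91.0% and 98.5% were recovered in OSe against ISe. Of the probe sets called there, 5.59% had no planted change. The simulated probe sets varied independently of each other, and the largest difference among the 8 genes was 0.28. These shares therefore do not give the power for the 8 genes. The arrays were of separate calves, and 0 were identical. Alternatives were another normalization, probe set filters, no moderation, the animal number as a block (animals 1 to 4) and leaving out each calf. No coordinates or sequences are given.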

Additional observations from a re-analysis of the deposited data

Results flagged for a closer look

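A calf was looked for that stood apart from the others of its group, by comparing the gap to its nearest neighbour with the group's range (Dixon's criterion at 95%). Over 24 genes and 3 groups, 72 groups were examined and 5 were picked out, and chance picks out about 1 in 20. For FST, Mix animal 3 was highest at 7.53, with the nearest other Mix calf at 7.16. For FSHR, ISe animal 3 was highest at 12.08 against 11.80 for the next ISe calf, and OSe animal 4 was lowest at 11.705 against 11.88 for the next OSe calf. Among the pathway genes, LTBP1 was lowest in Mix animal 2 at 8.51 against 8.99, and NOG, a dim probe set, was highest in OSe animal 2 at 5.004 against 4.44. OSe animal 2 is also the calf whose array had the median of 7.74.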

How the results depend on the processing

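No member passed the F test or a contrast under any alternative that was run. The count of probe sets past the adjusted threshold was 0 to 1 when single calves were left out, both in the F test and in Mix minus OSe (1 without OSe animal 3), and 0 in the other contrasts. The count of member pairs past it was 0 to 2 (2 without Mix animal 4). The count of member and marker list pairs past it was 3 over all calves, 4 with median centring, 0 with group means removed and 1 by Spearman rho. When single calves were left out this count was 0 to 4 (0 without ISe animal 4, OSe animal 2, OSe animal 4 or Mix animal 3, and 1 without ISe animal 3). Probe sets with an unadjusted p under 0.05 numbered 701 in OSe minus ISe, but 429 among those above the 25th percentile and 437 among those with 1 symbol, where fewer were tested, and 995 in Mix minus ISe but 1731 without ISe animal 4. Of the member differences, 17 of 456 results and settings changed sign, all near 0: FSHR in OSe minus ISe (0.018) was -0.0070 with median centring, ACVR2A (0.026) was -0.00548 with quantile normalization, and leaving out single calves gave -0.0109 to 0.127 for INHBA, -0.0078 to 0.081 for FSHR, -0.0093 to 0.063 for ACVR2A and -0.112 to 0.0160 for ACVR1B in OSe minus ISe, -0.076 to 0.0036 for ACVR2A in Mix minus ISe, and -0.056 to 0.070 for INHBB and -0.0449 to 0.0535 for ACVR2B in Mix minus OSe. Without the 2 calves farthest from the member's median, r was -0.308 for INHA with INHBA, 0.0026 for INHBB with FSHR, 0.0197 for FST with endothelial markers, 0.081 for FSHR with Sertoli markers and -0.161 for INHA with Sertoli markers. The last was also -0.0599 with median centring, -0.247 with group means removed, -0.049 by rho and -0.014 to 0.171 without single calves, and FSHR with Sertoli markers ran from -0.389 to 0.388. The cause of these changes was not tested.

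The labels number animals alike across groups. With the number as a replicate block, animals 1 to 4 of each group entered and ISe animal 5 was left out. There 0 probe sets passed in any test and no call changed. FSHR in OSe minus ISe was -0.0078, the same as without ISe animal 5 and with no block. Deviations of same-numbered calves correlated between -0.154 and 0.106, so the numbers were not taken as pairs. Each member had 1 probe set, so other probe sets could not be tried.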
